A study of Mus musculus with 186 samples.

Results

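Cortical neurons that had been active for 6 h were compared with and without cycloheximide, a blocker of protein synthesis, over a captured panel of 298 genes. The comparison took the 4 libraries that the labels give as sustained activity for 360 min, 2 with cycloheximide (CHX) and 2 with DMSO as vehicle, of 186 samples in the whole series. A further 2 CHX and 2 vehicle libraries came from unstimulated cultures of the same experiment. All were captured total RNA from primary cortical neurons of CD1 mice, taken from E16.5 embryos and kept for 7 to 8 days in vitro. Neither the stimulus nor the dose and duration of CHX is in the labels. They also do not tie replicates to separate dissections, so p-values measure only the spread between these libraries, which may be technical. The panel holds 47 control genes, which set the scale, and 251 others. A value is a gene's reads divided by the geometric mean of the control genes in that library, so values are compared within a gene and not between genes.

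Neuronal activity first switches on immediate-early genes, whose transcription relies on proteins already in the cell, and then late-response genes, many of which need factors made from the first wave. Cycloheximide stalls translation elongation, so it separates genes that respond without new protein from genes that need it. Immediate-early mRNAs often accumulate when translation is blocked, which is called superinduction, since new proteins that shut off their transcription or that destabilise their short-lived mRNAs are then not made.

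Depth over the panel ran from 1253748 to 7695002 reads in the 8 libraries. At 6 h the control genes took 14.3% and 18.4% of reads in the CHX libraries, against 29.5% and 30.1% in the vehicle libraries. Of the 47 control genes, 4 were higher with CHX at 6 h (Alg12, Cog4, Hps4 and Mvk) and 2 were lower (Dync1h1 and Snn), with log2 differences between -1.85 and 1.36 over all 47. Replicates differed by a median of 0.43 on the log2 scale in the CHX libraries at 6 h and by 0.54 in the vehicle libraries at 6 h. None of 24 markers of neurons, astrocytes, microglia, the oligodendrocyte lineage or endothelium is on the panel. In the introns of unstimulated vehicle total RNA (4 libraries), 8 neuronal markers summed to between 2865 and 3843 RPM (reads scaled to library size) and 5 astrocyte markers to between 352 and 473. Microglial markers summed to between 3.70 and 4.84 RPM there. The part of the control genes' share and of cell makeup in the results below was not tested.

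Blocking protein synthesis moved the panel in both directions. At 6 h, 51 of 283 genes tested were higher with CHX than with vehicle (18.0%) and 64 were lower (22.6%), 115 in all (40.6%), by limma with a Benjamini-Hochberg adjusted p under 0.05. The median log2 difference over all 283 was -0.08, and the range ran from -5.01 to 5.00. Of the genes past the threshold, 29 were higher by more than 2 and 27 lower by more than 2 on the log2 scale. Both CHX libraries lay above both vehicle libraries for 85 genes (30.0%) and below both for 104 (36.7%). The other 15 panel genes had means under the pseudocount of 0.0115, with no value above 0.042 in any library, and were not tested. In such bulk RNA, fewer cells of a type and less RNA per cell cannot be told apart.

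Counts in each direction were set beside how fast a gene responds to activity. A separate vehicle time course (7 unstimulated replicates, 3 at 20 min, 7 at 60 min and 6 at 360 min), which shares no library with the CHX comparison, sorted the panel. Genes higher than unstimulated at 60 min (limma adjusted p under 0.05) were called rapid, and those not rapid but higher at 360 min late. Of 36 rapid genes tested, 26 were higher with CHX at 6 h (72.2%) and 0 were lower, with a median log2 difference of 1.96. Of 166 late genes, 18 were higher (10.8%) and 56 lower (33.7%), with a median of -0.65. Of 73 genes in neither class, 6 were higher and 6 lower, and their median was 0.02. Most of the 73 are control genes, which set the scale, so a median near 0 is partly built in. Of the 29 that are not control genes, 2 were higher and 4 lower, with a median of -0.03. Rapid genes that were not past the threshold numbered 10, among them Npas4, Sik1 and Rgs2. Rescaling the time course to equal library medians left 24 late genes, of which 3 were higher and 6 lower with CHX, against 26 rapid genes, of which 21 were higher and 0 lower. Such rescaling takes out a rise shared by the panel, whose median gene stood 1.19 higher at 360 than at 60 min (log2). The 24 are thus late genes that rose by more than the panel median.

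**Figure D1:**
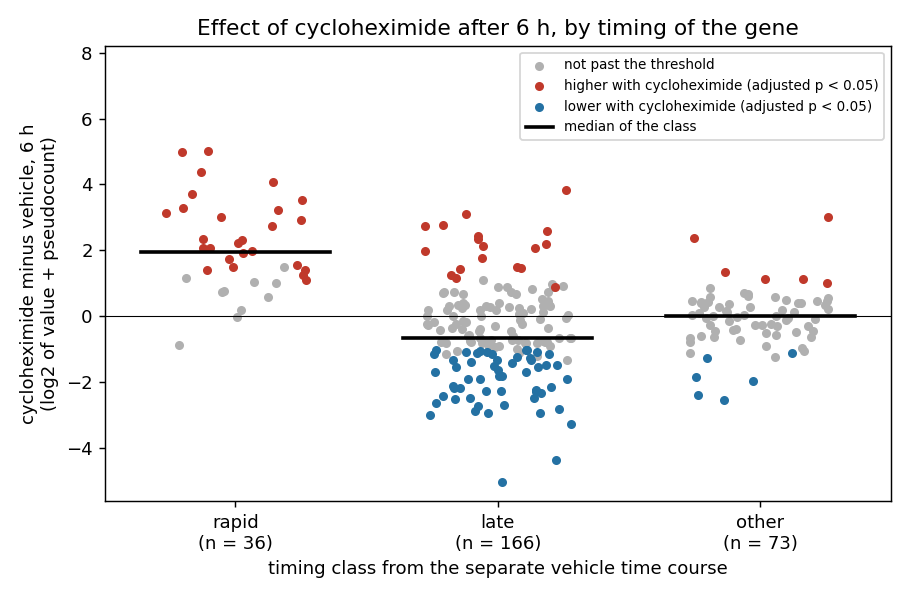
Difference between cycloheximide and vehicle at 6 h (log2 of value plus pseudocount, vertical axis) for each tested gene, by timing class from the separate vehicle time course. Each dot is 1 gene, coloured by its call, and bars are class medians: 26 of 36 rapid genes were higher and 0 lower, and 56 of 166 late genes were lower and 18 higher.

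Promoters were looked up for the genes called in each direction. RefSeq windows of the build GRCm38.p6, cut to the 250 bases before a listed start, were found for 43 of 51 genes higher with CHX and 44 of 64 genes lower. They were searched on both strands for the full cAMP response element (CRE) TGACGTCA, its 5-base core TGACG (which also lies in the full CRE), the CArG box and the TATA box TATAAA. The full CRE was in the promoters of 9 of 43 higher genes (20.9%) and 1 of 44 lower genes (2.27%). It was in 8 of 122 genes not past the threshold (6.56%) and in 1.77% of all 27025 genes of the table. Genes had 1.26, 1.30, 1.29 and 1.22 windows on average in those groups. The core was in 60.5% of higher genes, 27.3% of lower genes, 41.0% of genes not past the threshold and 19.8% of all genes. The CArG box was in 1 of 43 higher and 1 of 44 lower genes, against 1.62% of all genes. The TATA box was in 7 of 43 higher (16.3%) and 11 of 44 lower genes, against 14.3% of all genes. A match is a run of letters in a window and was not tested as a site.

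The windows shown are those of the 3 genes with the largest difference in each direction that have one, and of the gene with the largest difference in each direction that holds a full CRE, chosen after the search. Those higher with CHX are Ccno (chr13:112987552-112987801, plus strand), Gadd45b (chr10:80929841-80930090, plus strand), Junb (chr8:84978749-84978998, minus strand) and Sstr2 (chr11:113619077-113619326, plus strand). Those lower are Acan (chr7:79052976-79053225, plus strand), Dennd2c (chr3:103127306-103127555, plus strand), Hdac9 (chr12:34917096-34917345, minus strand) and Dio2 (chr12:90739039-90739288, minus strand). Dennd2c and Hdac9 have 2 windows each, of which the first listed is shown. Sequences run 5′ to 3′ on the gene's strand, end at the base before the start, and carry matches in capitals, namely the full CRE in Sstr2 and Dio2, its core alone in Ccno and Junb, and a TATA box in Gadd45b, Dennd2c (on the other strand), Hdac9 and Dio2.
Ccno: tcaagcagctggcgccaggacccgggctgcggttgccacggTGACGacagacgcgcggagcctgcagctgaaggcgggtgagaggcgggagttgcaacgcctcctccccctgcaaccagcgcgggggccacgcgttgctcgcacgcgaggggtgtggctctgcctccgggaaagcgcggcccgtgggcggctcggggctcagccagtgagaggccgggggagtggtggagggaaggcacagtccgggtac
Gadd45b: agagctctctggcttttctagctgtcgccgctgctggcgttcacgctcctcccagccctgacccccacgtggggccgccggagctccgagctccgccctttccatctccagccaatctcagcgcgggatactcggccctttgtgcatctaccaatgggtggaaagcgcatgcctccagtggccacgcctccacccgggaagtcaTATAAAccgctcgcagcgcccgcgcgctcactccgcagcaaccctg
Junb: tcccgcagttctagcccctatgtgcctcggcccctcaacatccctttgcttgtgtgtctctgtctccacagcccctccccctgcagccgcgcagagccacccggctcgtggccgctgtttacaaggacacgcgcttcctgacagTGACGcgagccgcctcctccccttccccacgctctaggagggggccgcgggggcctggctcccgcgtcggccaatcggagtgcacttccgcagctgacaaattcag
Sstr2: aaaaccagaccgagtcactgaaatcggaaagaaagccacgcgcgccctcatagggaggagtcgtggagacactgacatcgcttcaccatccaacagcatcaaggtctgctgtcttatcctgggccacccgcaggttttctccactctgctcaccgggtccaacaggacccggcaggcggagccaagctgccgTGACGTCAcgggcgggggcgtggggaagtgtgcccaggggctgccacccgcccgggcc
Acan: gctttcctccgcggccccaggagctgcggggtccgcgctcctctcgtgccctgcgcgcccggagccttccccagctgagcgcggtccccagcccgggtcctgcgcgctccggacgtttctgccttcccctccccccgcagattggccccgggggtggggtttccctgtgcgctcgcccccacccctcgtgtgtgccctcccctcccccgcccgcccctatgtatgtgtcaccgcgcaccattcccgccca
Dennd2c: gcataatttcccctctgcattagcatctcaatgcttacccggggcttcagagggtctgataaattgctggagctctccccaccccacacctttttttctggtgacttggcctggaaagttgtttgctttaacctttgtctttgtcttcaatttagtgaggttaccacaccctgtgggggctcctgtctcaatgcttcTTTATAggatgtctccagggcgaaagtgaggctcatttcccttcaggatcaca
Hdac9: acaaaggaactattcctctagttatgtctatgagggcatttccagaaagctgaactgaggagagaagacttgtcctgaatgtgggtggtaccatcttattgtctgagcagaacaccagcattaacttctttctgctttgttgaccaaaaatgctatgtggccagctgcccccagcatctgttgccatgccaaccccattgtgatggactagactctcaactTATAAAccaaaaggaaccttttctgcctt
Dio2: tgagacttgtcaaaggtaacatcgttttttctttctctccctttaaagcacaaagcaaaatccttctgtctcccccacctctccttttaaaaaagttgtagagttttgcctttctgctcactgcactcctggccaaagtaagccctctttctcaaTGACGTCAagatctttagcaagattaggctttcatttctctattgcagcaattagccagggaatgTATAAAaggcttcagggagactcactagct
The Acan window holds no match to any motif searched, which says only that these letters are not in this window. Counted from -1 at the base before the start, the full CRE of Sstr2 spans bases -58 to -51 and that of Dio2 bases -95 to -88. Dio2, a thyroid hormone activating deiodinase, was lower with CHX by a log2 difference of -1.09, and Sstr2 was higher by 3.12.

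Immediate-early transcription factors were the group with the most members higher, 12 of 16 tested (75.0%), with 0 lower and a median log2 difference of 2.19. Over all genes tested 18.0% were higher and 22.6% lower. The growth arrest and RNA turnover regulators, a smaller group, had the same share higher. Fos, a subunit of the AP-1 transcription factor, stood at 42.4 and 46.6 in the CHX libraries, against 4.21 and 5.41 in the vehicle libraries. Both CHX libraries were far above both vehicle libraries, and the log2 difference was 3.22 ± 0.34 (SE, limma adjusted p = 3.2e-05). Junb, an AP-1 partner of Fos, stood at 4.75 and 5.05 with CHX, against 0.132 and 0.369 with vehicle (log2 difference 4.39 ± 0.47, limma adjusted p = 3.2e-05). In unstimulated cultures Junb stood at 0.226 and 0.368 with CHX and at 0.0120 and 0.0244 with vehicle. Junb in active CHX cultures thus stood above every other library of the experiment.

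Egr1 and Egr2, zinc-finger transcription factors of the Egr family, gave another pattern. Egr2 had 1.28 and 1.94 with CHX and activity, against 0.0772 and 0.0889 with vehicle and activity (log2 difference 4.07 ± 0.34, limma adjusted p = 8.4e-06). Without activity Egr2 stood at 1.76 and 1.65 in CHX cultures and at 0.0194 and 0.0172 in vehicle cultures. The level with CHX was thus much the same with and without activity, and the log2 difference between those states was -0.11 ± 0.34 (limma adjusted p = 0.81). Egr1 had 1.04 and 1.81 with CHX after 6 h, against 0.250 and 0.0832 with vehicle, and the log2 difference was 3.14 ± 0.51 (limma adjusted p = 0.00036).

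Ier2, a nuclear immediate-early protein, stood at 0.734 and 0.879 with CHX, against 0.0321 and 0.0773 with vehicle (log2 difference 3.71 ± 0.39). Nr4a1, an orphan nuclear receptor, stood at 9.63 and 19.9 with CHX, against 2.06 and 3.74 with vehicle (2.31 ± 0.43). Fosb, an AP-1 subunit whose product accumulates with repeated activity, stood at 1.62 and 4.03 with CHX, against 1.20 and 0.765 with vehicle. Its log2 difference of 1.40 ± 0.44 (limma adjusted p = 0.024) depended on replicate 2 of each group. It was 0.75 (limma adjusted p = 0.19) without CHX 6 h replicate 2 and 1.08 (0.091) without vehicle 6 h replicate 2.

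Npas4, a neuron-specific transcription factor induced by calcium entry, was at 2.25 and 3.47 with CHX, against 2.08 and 1.63 with vehicle. The log2 difference was 0.60 with a 95% interval from -0.17 to 1.37 (limma adjusted p = 0.19), so a difference as large as that of Fos lay outside the interval. In unstimulated cultures Npas4 stood at 0.0121 and 0.0087 with CHX and at 0.0096 and 0.0130 with vehicle, so it was far higher with activity in both. The other members not past the threshold, named after their values were seen, were Egr3 (0.19), Csrnp1 (0.13) and Nr4a3 (1.18).

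Of 8 growth arrest and RNA turnover regulators, 6 were higher (75.0%), 1 was lower (12.5%) and 1 did not pass. The list also holds a splicing factor, Cwc25, which is among the 6. The median log2 difference of the 8 was 2.64. The shares over all genes tested were 18.0% higher and 22.6% lower. Gadd45b, a stress-induced regulator linked to DNA demethylation in neurons, stood at 9.27 and 6.51 with CHX, against 0.110 and 0.497 with vehicle. Its log2 difference was 4.97 ± 0.56 (limma adjusted p = 3.8e-05), and on the log2 scale its vehicle libraries differed from each other more than its CHX libraries did. Btg2, an antiproliferative protein that promotes mRNA deadenylation, stood at 9.21 and 9.98 with CHX, against 0.899 and 1.73 with vehicle (2.93 ± 0.37). Cwc25, a splicing factor, stood at 20.8 and 17.8 with CHX, against 1.15 and 1.59 with vehicle (3.82 ± 0.33, limma adjusted p = 9.3e-06). Without activity Cwc25 stood at 1.71 and 1.62 with CHX and at 0.952 and 1.10 with vehicle, so its high level was seen where CHX and activity were combined. The gene that was lower, named after its values were seen, was Cdkn1a, a cyclin-dependent kinase inhibitor, by a log2 difference of -1.02 that lay at the edge of the threshold.

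The largest rise belonged to Ccno, a cyclin-family gene, at 1.20 and 1.80 with CHX against 0.0187 and 0.0590 with vehicle (5.00 ± 0.56, limma adjusted p = 3.8e-05). These values stood for 6466 and 18046 reads with CHX and for 77 and 412 reads with vehicle. Gpx8, an endoplasmic reticulum peroxidase, stood at 15.0 and 6.33 with CHX, against 1.06 and 1.34 with vehicle (3.02 ± 0.42), and its CHX libraries differed from each other by more than its vehicle libraries.

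Of 9 synaptic and dendritic genes, 3 were higher (33.3%), 1 was lower (11.1%) and 5 did not pass, with a median of 0.19, beside 18.0% higher and 22.6% lower over all genes tested. Arc, which drives removal of AMPA receptors from synapses, stood at 1.37 and 2.54 with CHX, against 0.109 and 0.289 with vehicle (log2 difference 3.30 ± 0.51, limma adjusted p = 0.00029). Amigo3, a membrane adhesion protein of neurons, stood at 0.620 and 1.09 with CHX, against 0.0306 and 0.112 with vehicle (3.53 ± 0.49). The gene that fell was Nptx2, a secreted pentraxin that clusters AMPA receptors, at 0.0486 and 0.0793 with CHX against 0.165 and 0.427 with vehicle. Its difference of -1.91 ± 0.45 (limma adjusted p = 0.0044) was -1.62 with an adjusted p of 0.073 without CHX 6 h replicate 1.

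**Figure D2:**
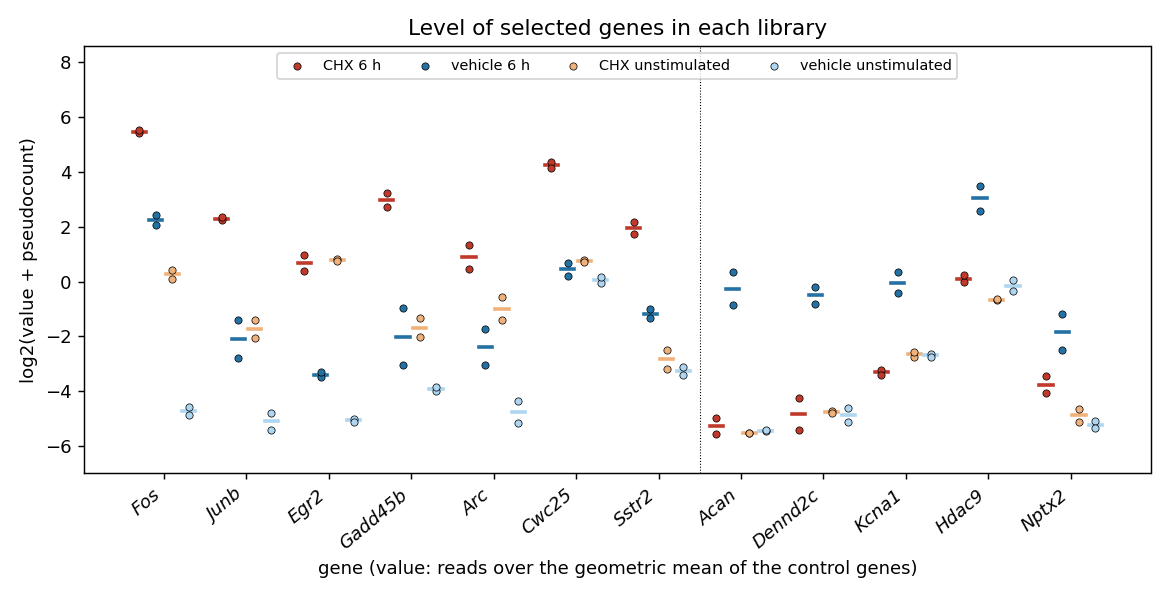
Level of 12 genes in each of the 8 libraries, as log2 of the value plus pseudocount (vertical axis), with CHX and vehicle at 6 h and then unstimulated for each gene; dots are libraries and bars are means of 2. Genes left of the dotted line were higher with CHX at 6 h, and those right of it were lower, with Acan, Dennd2c and Kcna1 in the CHX libraries at 6 h close to both unstimulated groups.

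For 11 of the 12 genes with the largest falls, activity raised the level in vehicle, and log2 differences from unstimulated over all 12 ran from 0.69 to 5.19. With CHX, 11 of the 12 did not pass against unstimulated, with log2 differences between -0.66 and 0.90. The 12 were picked by their difference between CHX and vehicle at 6 h, and both comparisons reuse those libraries. A high vehicle level and a low CHX level at 6 h were thus partly built in, so these counts are only a description. Acan encodes aggrecan, the core proteoglycan of perineuronal nets, and stood at 0.00961 and 0.0202 with CHX at 6 h, against 1.26 and 0.541 with vehicle. These values stood for 52 and 202 reads with CHX and for 5180 and 3776 reads with vehicle. In unstimulated cultures Acan was at 0.0102 and 0.0104 with CHX and at 0.0112 and 0.0116 with vehicle. The log2 difference at 6 h was -5.01 ± 0.42 (limma adjusted p = 8.4e-06), and the 95% interval ran from -5.92 to -4.10. With CHX, Acan at 6 h differed from unstimulated by 0.25 ± 0.42 (limma adjusted p = 0.66).

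Dennd2c, a DENN-domain protein of the family that activates Rab GTPases, stood at 0.0116 and 0.0404 with CHX, against 0.562 and 0.853 with vehicle (log2 difference -4.34 ± 0.43, limma adjusted p = 2.4e-05). Its level in unstimulated cultures was 0.0263 and 0.0248 with CHX and 0.0293 and 0.0173 with vehicle. Hdac9, a class IIa histone deacetylase, stood at 0.974 and 1.16 with CHX, against 11.2 and 5.98 with vehicle (-2.93 ± 0.38, limma adjusted p = 0.00011). Bmp3, a secreted member of the TGF-beta superfamily, stood at 0.0835 and 0.116 with CHX, against 1.03 and 0.680 with vehicle (-2.94 ± 0.38).

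The remaining genes with the largest falls were 9430020K01Rik, Hspb3, Palmd, Mfap3l, Hunk, Pcdh20 and Calcrl, with log2 differences between -2.99 and -2.53. Pcdh20, a protocadherin, was lower with CHX than with vehicle in both states. It was at 0.619 and 0.296 with CHX at 6 h, against 2.30 and 3.12 with vehicle. Without activity it was at 0.0587 and 0.0899 with CHX, against 0.507 and 0.555 with vehicle. Its 6 h level with CHX was still above its unstimulated level with CHX, by 2.38 ± 0.41 on the log2 scale (limma adjusted p = 0.00031). Calcrl, the receptor subunit for adrenomedullin and calcitonin gene-related peptide, was also lower with CHX in unstimulated cultures (-1.61 ± 0.37, limma adjusted p = 0.013).

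Of 12 channels and receptors, 5 were lower (41.7%), 1 was higher (8.33%) and 6 did not pass, with a median of -0.98, beside 22.6% lower and 18.0% higher over all genes tested. Kcna1, a voltage-gated potassium channel of the Kv1 family, stood at 0.0954 and 0.0833 with CHX, against 1.26 and 0.730 with vehicle (log2 difference -3.27 ± 0.36, limma adjusted p = 3.7e-05). Kcna4, another Kv1 channel, stood at 0.414 and 0.427 with CHX, against 1.53 and 2.39 with vehicle (-2.16 ± 0.35). With CHX, Kcna1 lay below its range in unstimulated cultures (0.138 to 0.158) and Kcna4 within its own (0.388 to 0.535). Sstr2, a somatostatin receptor, went the other way, at 4.50 and 3.31 with CHX against 0.384 and 0.487 with vehicle (3.12 ± 0.37, limma adjusted p = 5.5e-05). Sstr2 was a late gene in the separate time course, where vehicle cultures averaged 0.393 ± 0.14 at 360 min (SD, n = 6) and 0.119 ± 0.030 at 60 min (n = 7).

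Extracellular matrix and adhesion genes had 3 of 7 members lower (42.9%) and 0 higher, with a median of -0.89. Over all genes tested 22.6% were lower and 18.0% higher. Besides Acan the lower members were Omg and Serpinb2. Omg, an oligodendrocyte and neuronal glycoprotein that limits axon growth, stood at 0.171 and 0.262 with CHX, against 1.10 and 1.11 with vehicle (-2.32 ± 0.34, limma adjusted p = 0.00023). Serpinb2, a plasminogen activator inhibitor, stood at 0.0410 and 0.00220 with CHX, against 0.0991 and 0.187 with vehicle. Its CHX values stood for 222 and 22 reads, and its difference of -2.46 ± 0.57 was -1.50 with a limma adjusted p of 0.066 without CHX 6 h replicate 2.

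Of 11 secreted factors and enzymes that process them, 2 were higher (18.2%) and 3 lower (27.3%), shares near those of the panel, and 6 did not pass, with a median of -0.70. Pcsk1, the prohormone convertase that cleaves neuropeptide precursors, stood at 35.0 and 19.7 with CHX, against 9.41 and 10.2 with vehicle (log2 difference 1.42 ± 0.41, limma adjusted p = 0.016). Without CHX 6 h replicate 1 its difference was 1.01 with an adjusted p of 0.13. Vgf, a secreted neuropeptide precursor, stood at 1.29 and 1.44 with CHX, against 0.595 and 0.344 with vehicle (1.57 ± 0.40, limma adjusted p = 0.0085, or 0.067 without CHX 6 h replicate 2). Adcyap1, which encodes the neuropeptide PACAP, fell to 0.802 and 0.869 with CHX, against 1.88 and 2.66 with vehicle (-1.41 ± 0.35, limma adjusted p = 0.0070). Adcyap1 with CHX was nonetheless above its unstimulated level with CHX of 0.0113 and 0.0228, by 4.92 ± 0.35 on the log2 scale (limma adjusted p = 4.4e-07).

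Bdnf, the neurotrophin, was at 2.32 and 1.78 with CHX, against 2.87 and 4.52 with vehicle, and its log2 difference was -0.82 (95% interval -1.59 to -0.05, not adjusted over genes, limma adjusted p = 0.082). Without vehicle 6 h replicate 1 that difference was -1.15 with an adjusted p of 0.036. Scg2, a secretogranin of dense-core vesicles, was at 16.3 and 13.0 with CHX, against 7.88 and 10.4 with vehicle (0.69, interval -0.07 to 1.45, limma adjusted p = 0.13). Bdnf and Scg2 were both late genes in the separate time course, and with CHX they rose with activity by 4.37 and 3.36 on the log2 scale.

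Of 8 genes that restrain ERK signalling, 2 were higher, 1 was lower and 5 did not pass, with a median of 0.43, and the share called was close to the 40.6% over all genes tested. Dusp6, a phosphatase that inactivates ERK, stood at 11.5 and 12.2 with CHX, against 2.23 and 4.38 with vehicle (1.92 ± 0.41, limma adjusted p = 0.0027). Errfi1, a feedback inhibitor of EGF receptors, stood at 6.14 and 5.13 with CHX, against 1.72 and 2.34 with vehicle (1.48 ± 0.33). Spred3, an inhibitor of the Ras-ERK pathway, stood at 0.125 and 0.140 with CHX, against 0.535 and 0.224 with vehicle (-1.32 ± 0.41, limma adjusted p = 0.023). Spred3 was not past the threshold without vehicle 6 h replicate 1 (-0.72, adjusted p = 0.18), without CHX 6 h replicate 1 (-1.25, 0.11) or without CHX 6 h replicate 2 (-1.40, 0.084).

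Of 5 genes of cAMP and CREB feedback, 1 was higher (20.0%) and 0 lower, with a median of 0.34. The shares over all genes tested were 18.0% higher and 22.6% lower. Crem, which encodes the CREB family repressor ICER, stood at 4.61 and 2.51 with CHX, against 1.40 and 1.64 with vehicle (1.16 ± 0.38, limma adjusted p = 0.028). It lost the threshold without CHX 6 h replicate 1 (0.73, adjusted p = 0.17), without vehicle 6 h replicate 1 (1.05, 0.094) and with the 6 h libraries fitted alone (0.072). Sik1, a kinase that restrains CREB coactivators, was at 2.33 and 5.01 with CHX, against 1.97 and 1.45 with vehicle (1.01, limma adjusted p = 0.072). It passed without CHX 6 h replicate 1 (1.56, 0.023). Rgs2, a regulator of G protein signalling, was at 2.51 and 3.36 with CHX, against 4.92 and 5.69 with vehicle (-0.86, limma adjusted p = 0.079).

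Of 3 inflammatory and NF-kB pathway genes, 2 were higher (66.7%) and 0 lower, beside 18.0% and 22.6% over all genes tested. Ptgs2, the inducible cyclooxygenase, stood at 0.847 and 1.38 with CHX, against 0.130 and 0.422 with vehicle (2.14 ± 0.50, limma adjusted p = 0.0046, or 0.085 without CHX 6 h replicate 2). Nfkbid, a nuclear IkB protein, stood at 0.0457 and 0.0670 with CHX, against 0.0221 and 0.0122 with vehicle (1.25 ± 0.36, limma adjusted p = 0.016, or 0.084 without CHX 6 h replicate 2 and 0.058 without vehicle 6 h replicate 2). Rel, an NF-kB subunit, was at 0.192 and 0.185 with CHX, against 0.408 and 0.146 with vehicle, and the groups overlapped. It passed the threshold as lower without vehicle 6 h replicate 2 (-1.07, limma adjusted p = 0.045), while its sign was positive without vehicle 6 h replicate 1 (0.35).

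Of 3 clock genes, 1 was higher (33.3%) and 0 lower, beside 18.0% and 22.6% over all genes tested. Nfil3, a bZIP repressor of the clock output, stood at 6.05 and 4.10 with CHX, against 2.19 and 2.44 with vehicle (1.11 ± 0.35, limma adjusted p = 0.024). It missed the threshold without CHX 6 h replicate 1 (0.83, 0.11), without vehicle 6 h replicate 1 (1.03, 0.070) and with the 6 h libraries fitted alone (0.087). Per2, a core clock repressor, was at 0.398 and 0.526 with CHX, against 0.597 and 0.394 with vehicle, so its groups overlapped at 6 h. In unstimulated cultures Per2 stood at 0.419 and 0.339 with CHX, against 0.0473 and 0.0499 with vehicle (2.69 ± 0.35, limma adjusted p = 0.00037). Its 2 CHX groups and the active vehicle group thus stood near one another, and the unstimulated vehicle group alone was low.

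**Figure D3:**
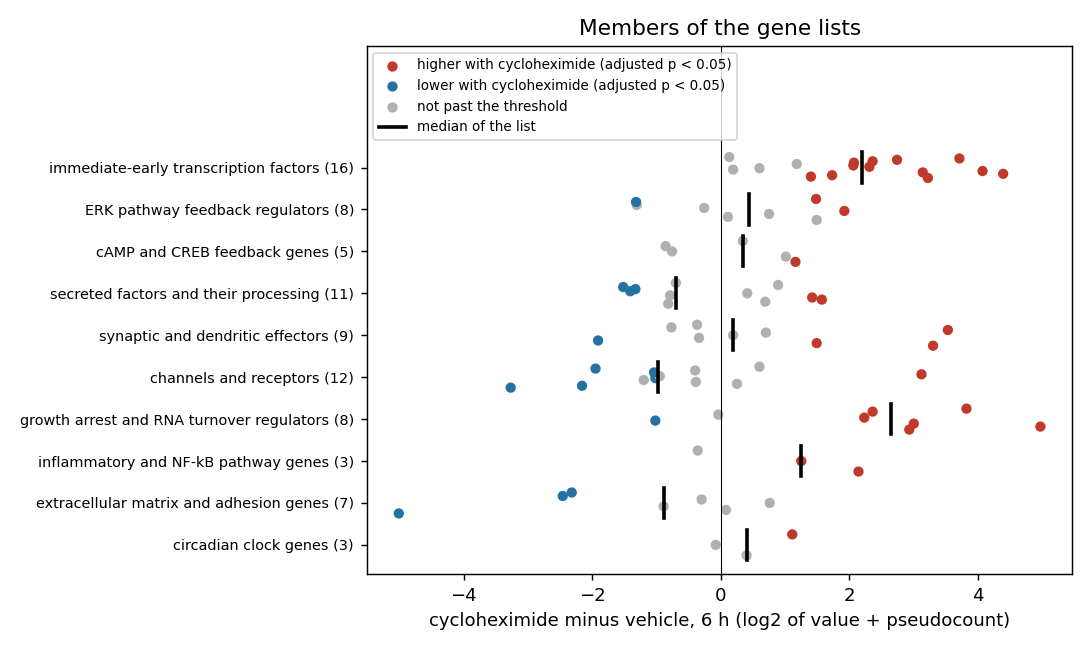
Difference between cycloheximide and vehicle at 6 h (log2 of value plus pseudocount, horizontal axis) for the tested members of 10 gene lists, with the number tested in brackets. Dots are genes coloured by call and bars are list medians, which ran from 2.64 for growth arrest and RNA turnover regulators to -0.98 for channels and receptors, beside -0.08 over all genes tested.

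The course of a gene in vehicle between 60 and 360 min was set beside its CHX difference over 275 genes measured in both experiments. Among 50 genes higher with CHX, 20 had a lower level at 360 than at 60 min in vehicle (40.0%), against 0 of 62 genes lower with CHX and 48 of all 275 (17.5%). Of the genes lower with CHX, 56 were late, a class set in this same time course as not rapid but higher at 360 min. The 0 of 62 thus largely restates that sorting. Of the 20 genes higher with CHX whose vehicle level fell, 16 were rapid, a class set there by a high level at 60 min. The 40.0% is thus partly built in too, and a fall of any size was counted. Of 20 rapid genes whose vehicle level was lower at 360 than at 60 min, 16 were higher with CHX, with a median log2 difference of 2.96. Of the other 16 rapid genes, 10 were higher, with a median of 1.47. Egr1 averaged 0.297 ± 0.29 at 360 min (SD, n = 6) and 2.30 ± 1.5 at 60 min (n = 7) in that vehicle course. Arc averaged 0.114 ± 0.089 at 360 min and 0.936 ± 0.76 at 60 min, and Junb 0.256 ± 0.16 and 0.515 ± 0.18. Acan averaged 0.518 ± 0.34 at 360 min and 0.0431 ± 0.032 at 60 min. Across the 275 genes Spearman's rho between both differences was -0.303 and Pearson's r -0.404, as a description, since genes of a panel share libraries and scale.

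**Figure D4:**
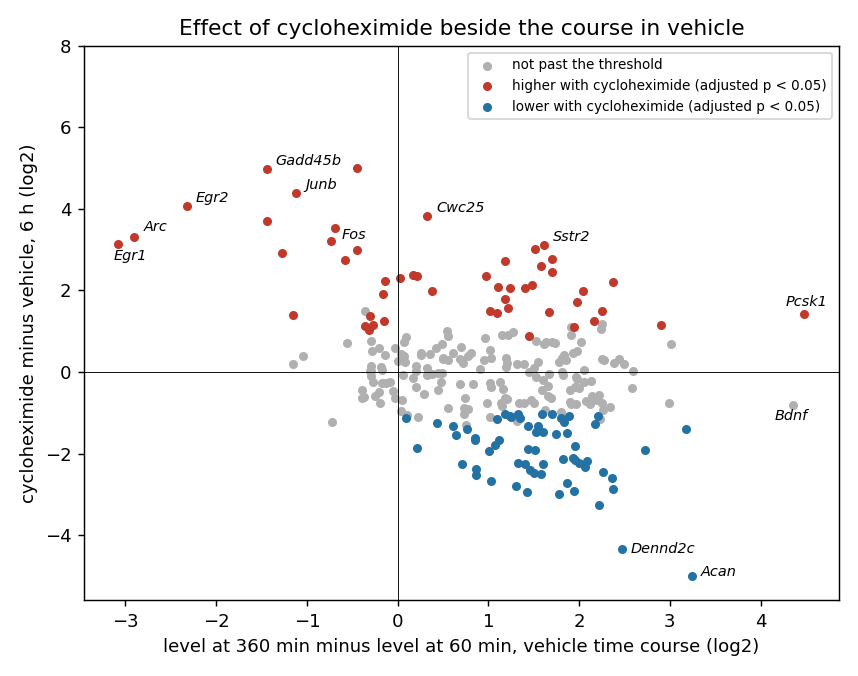
Difference between cycloheximide and vehicle at 6 h (vertical axis, log2) against the level at 360 min minus the level at 60 min in the separate vehicle time course (horizontal axis, log2) for 275 genes, coloured by call. Of the 50 genes higher with CHX, 20 lie left of 0, and of the 62 genes lower with CHX 0 do.

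Cycloheximide also raised some immediate-early genes in unstimulated cultures, Fos, Egr1, Egr2 and Junb among them. Of 16 immediate-early transcription factors, 6 were higher there and 0 lower, beside 26 higher and 6 lower of all 283 genes tested. Of the 51 genes higher at 6 h, 16 were also higher in unstimulated cultures. Fos there stood at 1.06 and 1.34 with CHX, against 0.0230 and 0.0303 with vehicle, a log2 difference of 4.98 ± 0.34 (limma adjusted p = 7.7e-07). Its difference of 3.22 at 6 h was smaller than without activity, by -1.76 (limma adjusted p of the interaction = 0.032), although its level was highest with CHX and activity together. Over 36 rapid genes the median log2 difference was 1.96 at 6 h and 1.25 in unstimulated cultures, and over 166 late genes it was -0.65 at 6 h and 0.04 in unstimulated cultures. The differences in both states correlated across 283 genes (Spearman's rho 0.541, Pearson's r 0.590), a description of genes that share a panel and a scale, in states that share no library.

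The difference between both effects was tested as an interaction. It passed for 45 of 283 genes (15.9%), with the effect more positive at 6 h for 14 (4.95%) and more negative for 31 (11.0%). The 6 h difference is part of the interaction, so its direction and that of the calls at 6 h are not independent. All 14 were genes higher with CHX at 6 h, and of the 31, 25 were lower, 3 were higher (Egr1, Egr2 and Fos) and 3 passed neither way at 6 h (Gmeb2, Per2 and Spry4). These counts depended on single libraries. They were 5 and 10 without CHX 6 h replicate 1, 9 and 14 without CHX 6 h replicate 2, and 22 and 50 without vehicle 6 h replicate 2. They were 6 and 9 without CHX unstimulated replicate 1, 7 and 6 without CHX unstimulated replicate 2, and 10 and 14 without vehicle unstimulated replicate 2. Rescaling libraries to equal medians, which moved the interaction by 0.39 at the median, gave 20 and 13, or 60.6% positive in place of 31.1%.

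**Figure D5:**
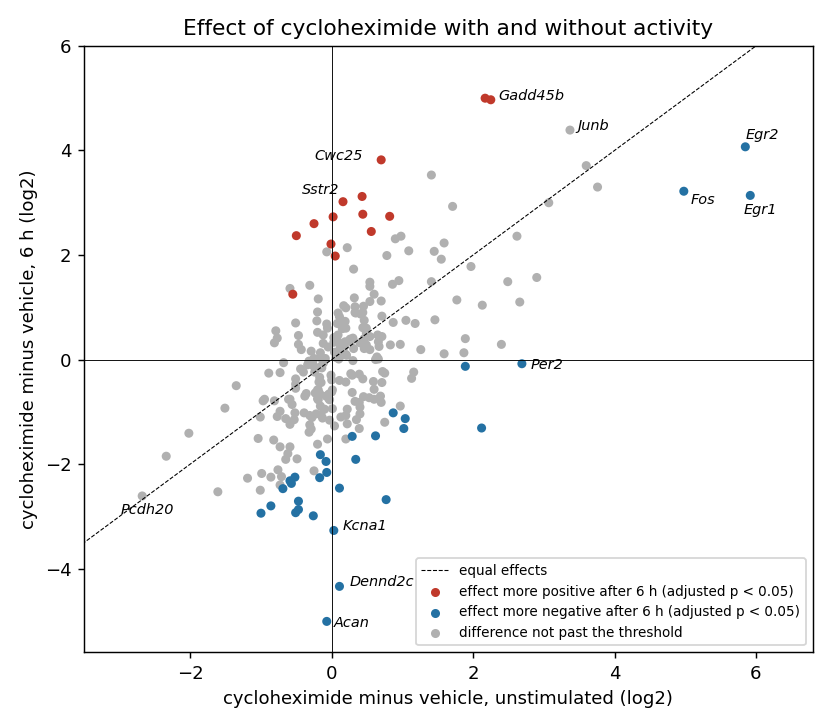
Difference between cycloheximide and vehicle at 6 h (vertical axis, log2) against the same difference in unstimulated cultures (horizontal axis, log2) for 283 genes; the dashed line marks equal effects. The 14 red genes had a more positive and the 31 blue genes a more negative effect at 6 h, with Fos, Egr1 and Egr2 far to the right and Acan, Dennd2c and Kcna1 near 0 unstimulated and low at 6 h.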

How the data were processed

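Per the labels' protocols, RNA was extracted on columns with DNase, made into stranded total RNA libraries and captured with RNA baits for activity-regulated genes. The submitters' processing notes list STAR, SAMtools and bedtools without versions, and mm9 as the build. The deposited values are a signal whose headers name no unit. From the values, each library's reads, with 0.01 read added, were divided by the geometric mean of 47 genes, which held in 8 of 8 libraries (tolerance 1e-06), and 100% of values were whole multiples of 1 read (tolerance 1e-04 reads). Reads may be PCR copies of one molecule. The introns of total RNA were deposited in RPM by the authors.

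Differences were fitted with limma 3.58.1 (R 4.3.3) after a pseudocount of 0.0115, the percentile 10 of non-zero values, was added and log2 taken. Genes with means below it were left out, all 8 libraries entered 1 fit without a replicate block, and p-values are two-sided and Benjamini-Hochberg adjusted over 283 genes with a threshold of 0.05. The scale understates changes near the pseudocount. The time course was fitted alike (pseudocount 0.0107, 278 genes), after unstimulated libraries that share a replicate number were averaged. Its replicate numbers recur across time points and were not blocked in the main fit. Genes named are the 12 largest differences per direction past the threshold with groups that do not overlap, up to 3 members per list with the smallest adjusted p, and 14 markers. Members, lists and tests were chosen with earlier results of these data known. The fits were tested on simulated data. Python 3.11.15, numpy 2.4.6, pandas 2.3.3 and matplotlib 3.10.9 were used. Alternatives were the pseudocount, no filter, rescaling, an intensity trend, the replicate block, the libraries at 6 h alone and leaving out each library.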

Additional observations from a re-analysis of the deposited data

Results flagged for a closer look

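The effect of cycloheximide differed between active and unstimulated cultures, by the limma interaction, for 25 of the 49 named genes. Over all genes tested it differed for 45 of 283 (15.9%). Many named genes were chosen by their 6 h difference, which is part of the interaction, so their share was raised by the choice. All values are the log2 difference between CHX and vehicle at 6 h minus that in unstimulated cultures. Of the 25, the effect was more positive at 6 h for 6. These were Cwc25 (3.12), Gpx8 (2.86), Ccno (2.84), Gadd45b (2.72), Sstr2 (2.70) and Nfkbid (1.79).

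The effect was more negative at 6 h for 19. Apart from Egr1, Egr2, Fos and Per2, these were genes that CHX lowered at 6 h, namely Acan (-4.95), Dennd2c (-4.45), Hunk (-3.45), Kcna1 (-3.30), 9430020K01Rik (-2.73), Serpinb2 (-2.58), Hdac9 (-2.42), Hspb3 (-2.40), Spred3 (-2.34), Mfap3l (-2.25), Nptx2 (-2.25), Kcna4 (-2.09), Bmp3 (-1.95), Palmd (-1.93) and Omg (-1.73). Their differences in unstimulated cultures did not pass and varied, at -0.07 for Acan and 0.03 for Kcna1, but 1.02 for Spred3, 0.77 for Hunk, -1.0 for Bmp3 and -0.86 for Palmd. For Egr1 (-2.79), Egr2 (-1.77) and Fos (-1.76) the drug raised the level in both states and by more on the log2 scale without activity. For Per2 (-2.77) the drug raised the level without activity (2.69), while the 6 h difference was -0.08 and did not pass.

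Of the 25, 8 passed under every alternative run, namely Acan, Dennd2c, Kcna1, 9430020K01Rik, Cwc25, Sstr2, Gpx8 and Per2, and the others did not pass under at least 1 of them. Groups of 2 libraries are too small for a check of single libraries that stand apart.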

How the results depend on the processing

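The counts of genes higher and lower with CHX at 6 h kept within 1.5 times under every alternative run. Leaving out 1 library at a time gave 41 to 58 higher and 48 to 79 lower, and the replicate block gave 62 and 78, which include all 51 and 64. The numbers were not taken to pair libraries, since the labels do not tie a number to a shared dissection. Same-numbered libraries of CHX and vehicle correlated in their deviations by 0.0718 at 6 h but by 0.705 in unstimulated cultures. The vehicle groups at 6 h and unstimulated correlated by 0.571, and the 6 pairs of groups ranged from -0.104 to 0.705. A shared replicate effect in some groups thus remains possible. With rapid and late classes held fixed, 0 rapid genes were lower under any alternative of the CHX fit, while 20 to 29 were higher, and 42 to 65 late genes were lower. Other timing classes gave 0 or 1 rapid gene lower. The interaction was less stable. Genes more positive at 6 h numbered 14, but 9 with the pseudocount divided by 4, 22 with the replicate block and 5 to 22 without 1 library. Genes more negative numbered 31, but 13 after rescaling, 51 with the replicate block and 6 to 50 without 1 library; the cause was not tested. Timing gave 36 rapid and 167 late genes, but 24 late after rescaling to equal medians, which takes out a rise shared by the panel. Without 1 replicate the sorting gave 31 to 38 rapid and 160 to 171 late. A column at 360 min that the labels tie to no single sample was also left out, chosen after seeing the data, which gave 36 and 170.

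Of 41 named genes past the threshold at 6 h, 31 stayed past it under every alternative. The replicate block brought Sik1 past it (adjusted p = 0.041). Signs turned for genes near 0 at 6 h when single libraries were left out. Rel ranged from -1.07 to 0.35, Per1 from -0.06 to 0.86, with -0.05 also below 0, and Per2 from -0.37 to 0.21, with 0.11 also above 0. Interactions that had not passed turned too. Ier2 was -0.32 with the pseudocount divided by 4 and ranged from -0.41 to 0.62 without single libraries, with -0.02 and -0.08 also below 0. Arc was 0.17 with 4 times the pseudocount and ranged from -1.12 to 0.19. Pcdh20 was -0.24 with 4 times the pseudocount and ranged from -0.45 to 0.59, with -0.15 and -0.19 also below 0. Dusp6 ranged from -0.12 to 0.85. Rgs2 was 0.08 after rescaling and ranged from -0.69 to 0.09. Adcyap1 was -0.14 with 4 times the pseudocount. A count test on recovered reads, planned with its own scale and with TMM, was not run, because the panel has too few low values for the recovery to be checked. With 2 libraries a group, small differences were not detectable.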
